A study of Sus scrofa with 22 samples.

Results

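The retinoid and carotenoid absorption genes described here are 10 genes chosen by symbol: BCO1, ISX, RBP2, LRAT, RETSAT, DHRS3, ALDH1A1, ALDH1A2, CRABP2 and CYP26B1. Rows for 9 of them were read from per-library tables of 24358 genes, and ISX was not analysed here. The tissue was the mucosa of the jejunum, the middle stretch of the small intestine, from Ossabaw pigs, a breed prone to obesity that is used to study metabolic disease. The 3 groups were the Western pattern with atorvastatin (WD_S, 7 pigs), the heart healthy pattern with atorvastatin (HHD_S, 8 pigs) and the heart healthy pattern alone (HHD, 7 pigs). The diets lasted 6 months and both supplied 38% of energy as fat, 47% as carbohydrate and 15% as protein. WD held much cholesterol, butter fat and refined carbohydrate, and HHD held vegetables, fruit, fibre, whole grains and unsaturated oils, with fish oil capsules of 1000 mg given 3 times a week. Atorvastatin, a statin that blocks the making of cholesterol, was dosed at 20 mg per day over 3 months and then at 40 mg per day. The series text and the sample labels differ on whether WD_S received the drug; the labels were followed. Pigs fed WD without the drug were not analysed here. The sex of each pig is not in the labels.

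Vitamin A enters the body as preformed retinyl esters from animal foods and as provitamin A carotenoids such as beta-carotene from plants. In the enterocyte, the absorptive epithelial cell, carotenoids are taken up with the help of the scavenger receptor SCARB1 and cleaved by BCO1 to retinal, which is reduced to retinol, bound by RBP2, esterified by LRAT and exported in chylomicrons. A smaller part is oxidized to retinoic acid, the ligand of the nuclear RAR receptors. In mice, retinoic acid induces the transcription factor ISX, which represses Bco1 and Scarb1, so that vitamin A status limits further uptake.

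Each library came from a separate pig, with totals of 15.3 to 31.6 M unique exon reads. Levels below are CPM, the reads of a gene scaled to library size by the TMM method, and they compare a gene between libraries, not genes with each other, because transcript length was not used. Of the 9 genes, 8 passed the filter on low counts and were tested with edgeR among 13626 genes, and CRABP2 did not pass. The enterocyte markers were abundant in all libraries, with VIL1 between 980.5 and 1898 CPM and FABP2 between 3379 and 13110 CPM. Defining markers of other organs were low, with PNLIP (pancreas) at most 0.0873 CPM and the ileal bile acid binding protein FABP6 at a median of 0.204 CPM and a highest value of 26.1 CPM. In whole mucosa, fewer cells of a type and less RNA per cell cannot be told apart.

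None of the 8 tested genes passed an adjusted p of 0.05 in any comparison of the 3 groups. The background was as sparse. By edgeR, 0.0% of the 13626 genes were called between WD_S and HHD_S, 0.0% between HHD_S and HHD, and 0.00734% (1 gene, the sterol exporter ABCG1, named after its value was seen) between WD_S and HHD. At an unadjusted p under 0.05, 2.92%, 1.81% and 3.41% of all genes passed in those comparisons in the same order, and 0 of the 8 genes did in each; in the test for any difference among the 3 groups, 2.13% of all genes did and 0 of the 8. DESeq2 called 4 genes, 1 gene and 2 genes in them, none of the 8 genes among them. For every one of the 9 genes, the values of all 3 pairs of groups overlapped. Overlap was counted for these 9 genes alone, so it cannot be set against the share over all genes.

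**Figure D1:**
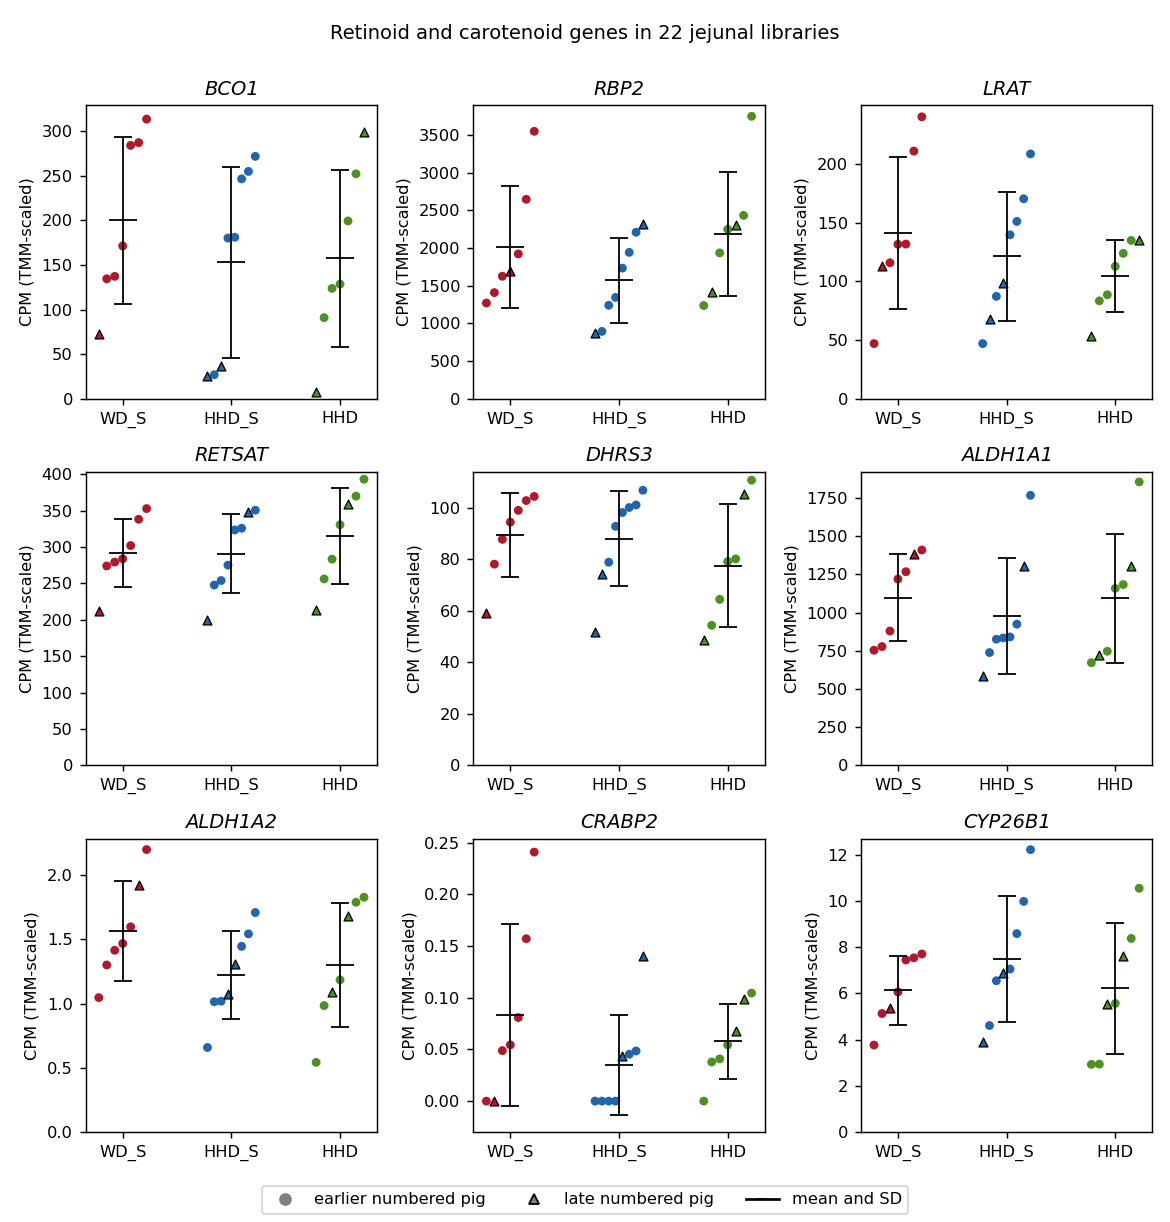
Levels of the 9 genes in CPM (linear axes, each with its own range) in WD_S (7 libraries), HHD_S (8) and HHD (7); each point is 1 pig, triangles are the 5 pigs with the highest animal numbers, and black bars are the group mean and SD. The groups overlap for every gene, and BCO1 spreads from 7.56 to 313.8 CPM.

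BCO1, beta-carotene oxygenase 1, splits beta-carotene centrally into retinal and is the entry step from plant carotenoids (chromosome 6, 7008330 to 7054089, Sscrofa11.1). It ranged from 72.6 to 313.8 CPM with a median of 171.4 CPM in WD_S, from 25.9 to 272.0 CPM with a median of 180.7 CPM in HHD_S, and from 7.56 to 298.9 CPM with a median of 128.6 CPM in HHD. Each group held pigs near the top of the whole range, and the highest library was 41.5-fold above the lowest. The lowest WD_S library, WD_S 7 at 72.6 CPM, ranked 5 from the bottom, and those below it were of HHD and HHD_S. The mean ± SD was 200.2 ± 93.9 CPM over the 7 WD_S libraries, 153.1 ± 107.2 CPM over the 8 HHD_S libraries and 157.4 ± 99.7 CPM over the 7 HHD libraries. The fitted log2 fold change was 0.37 (SE 0.608) for WD_S over HHD_S, −0.04 (SE 0.599) for HHD_S over HHD and 0.33 (SE 0.634) for WD_S over HHD. The 95% interval for WD_S over HHD_S ran from 0.538-fold to 3.12-fold, and that for HHD_S over HHD from 0.408-fold to 2.31-fold. With the 5 pigs of the highest animal numbers (late numbered pigs) left out, the HHD_S over HHD value had the other sign, 0.29.

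The spread of BCO1 between pigs of one group was among the widest measured. The SD of its log2 CPM within groups was 1.44, and 99.66% of the 11773 genes whose mean log2 CPM was 1 or more had a smaller one, and their median was 0.274. LRAT had an SD of 0.67 (95.59% of genes below it), CYP26B1 0.55 (91.66%), RBP2 0.54 (90.74%), ALDH1A1 0.48 (87.1%), DHRS3 0.37 (73.03%) and RETSAT 0.28 (53.29%). ALDH1A2 had 0.45, but its mean log2 CPM of 0.47 lies below the range of the ranked genes. The libraries held 153 to 8761 reads of BCO1, so counting error is small beside that spread, and 10 to 45 reads of ALDH1A2, where it is not.

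SCARB1, the receptor that takes up carotenoids and cholesterol esters at the brush border, spread as widely as BCO1, with a within-group SD of 1.49 on the log2 scale (99.69% of genes below it). It ranged from 101.4 to 679.8 CPM with a median of 408.6 CPM in WD_S, from 14.5 to 457.5 CPM with a median of 148.0 CPM in HHD_S, and from 16.7 to 472.1 CPM with a median of 239.9 CPM in HHD. Its log2 fold change was 0.80 (SE 0.638) for WD_S over HHD_S and −0.30 (SE 0.623) for HHD_S over HHD, with edgeR adjusted p of 0.9995 and 0.9993. The pigs low in BCO1 were largely the pigs low in SCARB1, and 4 of the 5 lowest libraries were the same for both genes. HHD 7 had 7.56 CPM of BCO1 and 16.7 CPM of SCARB1, HHD_S 8 had 25.9 and 14.5 CPM, HHD_S 3 had 26.9 and 45.1 CPM, and HHD_S 7 had 36.7 and 88.9 CPM. At the other end, WD_S 4 had 287.4 CPM of BCO1 and 679.8 CPM of SCARB1.

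**Figure D2:**
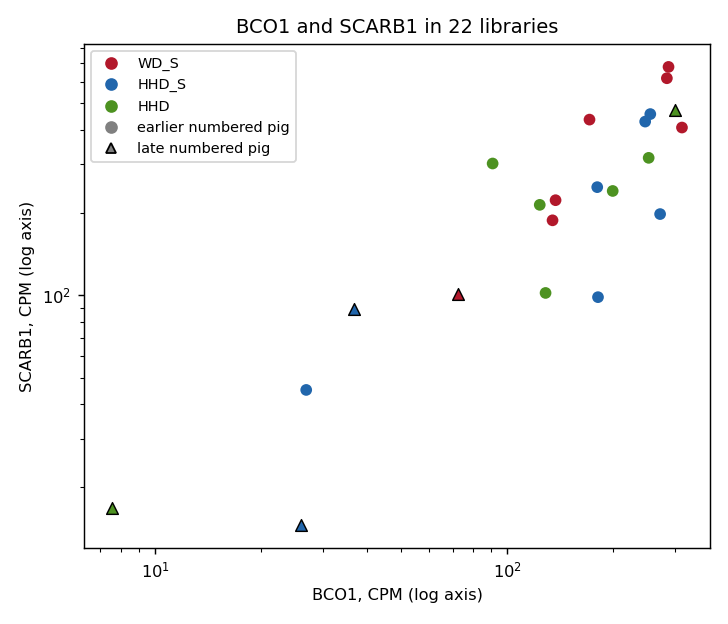
SCARB1 against BCO1 in CPM on log axes, 1 point per pig, coloured by group, with triangles for the 5 late numbered pigs. The points rise together from HHD 7 and HHD_S 8 at the lower left to WD_S 4 and WD_S 5 at the upper right, and every group holds points in the middle of the cloud.

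With group means removed, the log2 levels of BCO1 and SCARB1 correlated over the 22 libraries with a Pearson r of 0.895 (permutation p = 1e-05, the smallest that 100000 permutations can give, adjusted p = 0.00296 over 13625 genes) and a Spearman rho of 0.817 (permutation p = 5e-05, adjusted p = 0.0168 over 336 pairs). SCARB1 ranked 4 among all genes tested by r with BCO1. The background for BCO1 is broad, since 10.8% of all genes correlated with it past the same adjusted threshold. Without HHD 7 and HHD_S 8, the libraries farthest from the BCO1 median, r was 0.805. It was 0.755 without the 5 late numbered pigs and 0.721 in the 18 libraries with more than 50 CPM of BCO1, a limit chosen after the values were seen. The score of the enterocyte markers had r = 0.621 and rho = 0.634 with BCO1 (permutation p = 0.00366 and 0.00427, adjusted p = 0.0685 and 0.117 over 104 pairs), which did not pass, and its part in the correlation with SCARB1 was not tested.

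RBP2 is the cellular retinol binding protein of the enterocyte, which holds retinol and retinal for esterification (chromosome 13, 80321024 to 80346032). It ranged from 1269 to 3547 CPM with a median of 1697 CPM in WD_S, from 874.2 to 2319 CPM with a median of 1538 CPM in HHD_S, and from 1236 to 3746 CPM with a median of 2246 CPM in HHD. The 2 lowest libraries, HHD_S 8 and HHD_S 3, were both of HHD_S, and the highest were HHD 5 and WD_S 3. The mean ± SD was 2016 ± 810 CPM over the 7 WD_S libraries, 1569 ± 565 CPM over the 8 HHD_S libraries and 2187 ± 824 CPM over the 7 HHD libraries.

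RBP2 had the smallest unadjusted p of the 8 genes, for HHD_S over HHD, with a log2 fold change of −0.49 (SE 0.267, edgeR adjusted p = 0.9993). That is 0.713-fold with a 95% interval from 0.486-fold to 1.05-fold. The value was unequal between the library pools, −0.11 in pool 3 and −1.22 in pool 4, where HHD is represented by HHD 4 and HHD 5, at 2246 and 3746 CPM. For WD_S over HHD_S it was 0.38 (SE 0.270), with 0.45 in each pool, and for WD_S over HHD −0.11 (SE 0.277), with 0.34 in pool 3 and −0.77 in pool 4.

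LRAT, lecithin retinol acyltransferase, esterifies retinol bound to RBP2 for packing into chylomicrons (chromosome 8, 74412226 to 74428713). It ranged from 46.9 to 240.1 CPM with a median of 131.5 CPM in WD_S, from 46.9 to 208.5 CPM with a median of 119.1 CPM in HHD_S, and from 53.8 to 135.1 CPM with a median of 112.7 CPM in HHD. The lowest values were alike in the groups, and 2 WD_S libraries and 4 HHD_S libraries lay above the highest HHD library. The log2 fold change was 0.20 (SE 0.315) for WD_S over HHD_S, 0.19 (SE 0.315) for HHD_S over HHD and 0.39 (SE 0.334, 95% interval from 0.810-fold to 2.12-fold) for WD_S over HHD. The WD_S over HHD_S value was −0.02 with limma and quality weights.

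LRAT and BCO1 moved together across pigs, the lead pair with BCO1 among the members. The background is broad, since 10.8% of all genes correlated with BCO1 and 1.62% with LRAT past the threshold adjusted over 13625 genes. Genes outside the members had a higher r with BCO1 than LRAT had, such as ORMDL3 at 0.909. Over the 22 libraries with group means removed, r was 0.691 and rho 0.665 (permutation p = 0.00029 and 0.00157, adjusted p = 0.00462 and 0.022 over 28 pairs). WD_S 3 was highest for both genes, at 313.8 CPM of BCO1 and 240.1 CPM of LRAT, and HHD_S 3 was low for both, at 26.9 and 46.9 CPM. Leaving out HHD 7 and HHD_S 8 gave r = 0.635, and leaving out the late numbered pigs gave 0.693. In the 18 libraries with more than 50 CPM of BCO1, r was 0.451. The enterocyte marker score had r = 0.62 and rho = 0.521 with LRAT (permutation p = 0.00193 and 0.0174, adjusted p = 0.0502 and 0.201 over 104 pairs), which did not pass, and its part in this pair was not tested.

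RETSAT, retinol saturase, converts retinol to dihydroretinol (chromosome 3, 59401161 to 59416829), and DHRS3 reduces retinal back to retinol, which keeps it from becoming retinoic acid (chromosome 6, 72556234 to 72599233). RETSAT was the steadiest of the tested genes. It ranged from 211.4 to 352.7 CPM with a median of 283.7 CPM in WD_S, from 200.3 to 350.4 CPM with a median of 299.2 CPM in HHD_S, and from 213.7 to 393.0 CPM with a median of 330.5 CPM in HHD. Its log2 fold change was 0.03 (SE 0.144) for WD_S over HHD_S, with a 95% interval from 0.829-fold to 1.26-fold, and −0.11 (SE 0.142) for HHD_S over HHD, with an interval from 0.755-fold to 1.14-fold. These are the narrowest intervals of the 8 genes.

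DHRS3 ranged from 58.9 to 104.3 CPM with a median of 94.3 CPM in WD_S, from 51.6 to 106.7 CPM with a median of 95.4 CPM in HHD_S, and from 48.8 to 110.6 CPM with a median of 79.1 CPM in HHD. The lowest library of each group, WD_S 7, HHD_S 7 and HHD 7, was a late numbered pig. The log2 fold change was 0.03 (SE 0.181) for WD_S over HHD_S, 0.19 (SE 0.180) for HHD_S over HHD and 0.22 (SE 0.192) for WD_S over HHD. DHRS3 correlated with BCO1 at r = 0.613 and rho = 0.525 (permutation p = 0.00333 and 0.0197, adjusted p = 0.0311 and 0.138 over 28 pairs, not passed by rank). Its r was 0.488 without HHD 7 and HHD_S 8, 0.5 in the 18 libraries with more than 50 CPM of BCO1, and 0.03 without the late numbered pigs. Past the threshold adjusted over 13625 genes, 11.3% of all genes correlated with DHRS3 and 10.8% with BCO1.

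ALDH1A1 and ALDH1A2 are retinal dehydrogenases, which oxidize retinal to retinoic acid. ALDH1A2 is known in the gut from dendritic and stromal cells as well, where retinoic acid guides lymphocytes to the mucosa. ALDH1A1 (chromosome 1, 226163347 to 226217342) ranged from 754.3 to 1410 CPM with a median of 1220 CPM in WD_S, from 587.5 to 1768 CPM with a median of 837.8 CPM in HHD_S, and from 672.6 to 1856 CPM with a median of 1159 CPM in HHD. In HHD_S the libraries clustered between 587.5 and 924.6 CPM, apart from HHD_S 7 at 1306 CPM and HHD_S 2 at 1768 CPM. The log2 fold change was 0.20 (SE 0.248) for WD_S over HHD_S, −0.16 (SE 0.242) for HHD_S over HHD and 0.03 (SE 0.255) for WD_S over HHD.

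ALDH1A1 followed RBP2 across pigs. Over the 22 libraries, r was 0.721 and rho 0.728 (permutation p = 0.00033 and 0.00028, adjusted p = 0.00462 and 0.00784 over 28 pairs). HHD 5 was highest for both, at 1856 CPM of ALDH1A1 and 3746 CPM of RBP2, and HHD_S 8 was lowest for both, at 587.5 and 874.2 CPM. Without these 2 libraries r was 0.609, and without the late numbered pigs it was 0.678. With adjustment over 13625 genes, 0.0% of all genes passed the threshold for correlation with ALDH1A1 and 0.22% (30 genes) did with RBP2. The pair of ALDH1A1 and RBP2 thus did not pass that adjustment, and the one over 28 pairs is milder. BLVRA, SUCLG1 and GALM had a higher r with ALDH1A1 than RBP2 had, at 0.805, 0.785 and 0.741.

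ALDH1A2 (chromosome 1, 113932722 to 114037059) was counted at a low level, 626 reads in all 22 libraries. It ranged from 1.05 to 2.20 CPM with a median of 1.47 CPM in WD_S, from 0.659 to 1.71 CPM with a median of 1.19 CPM in HHD_S, and from 0.543 to 1.83 CPM with a median of 1.19 CPM in HHD. The log2 fold change was 0.33 (SE 0.242) for WD_S over HHD_S, with a 95% interval from 0.888-fold to 1.78-fold, −0.11 (SE 0.242) for HHD_S over HHD and 0.22 (SE 0.255) for WD_S over HHD. ALDH1A2 had no partner among the members past the adjusted threshold.

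CRABP2 carries retinoic acid to its receptors (chromosome 4, 93388198 to 93393861). It was barely detected, with 27 reads in all 22 libraries and at most 5 in any one, and 7 libraries had none. The sums were 12 reads in WD_S, 6 in HHD_S and 9 in HHD. The mean ± SD was 0.0832 ± 0.0877 CPM over the 7 WD_S libraries, 0.0347 ± 0.0482 CPM over the 8 HHD_S libraries and 0.0578 ± 0.0365 CPM over the 7 HHD libraries. Two-sided exact permutation tests of the mean CPM gave p = 0.192 for WD_S against HHD_S, 0.312 for HHD_S against HHD and 0.523 for WD_S against HHD. At this depth no difference was detected, and the size of difference that could have been was not computed.

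CYP26B1, a cytochrome P450, breaks down retinoic acid. It ranged from 3.77 to 7.71 CPM with a median of 6.06 CPM in WD_S, from 3.92 to 12.2 CPM with a median of 6.98 CPM in HHD_S, and from 2.93 to 10.6 CPM with a median of 5.57 CPM in HHD. The WD_S values all lay inside the range of HHD. The log2 fold change was −0.29 (SE 0.275) for WD_S over HHD_S, 0.26 (SE 0.272) for HHD_S over HHD and −0.03 (SE 0.290) for WD_S over HHD. CYP26B1 correlated with DHRS3 at r = 0.544 and rho = 0.553 (permutation p = 0.0221 and 0.0166, adjusted p = 0.124 and 0.138 over 28 pairs), which did not pass. It was 0.63 without HHD 7 and HHD_S 7, and 0.766 without the late numbered pigs.

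**Figure D3:**
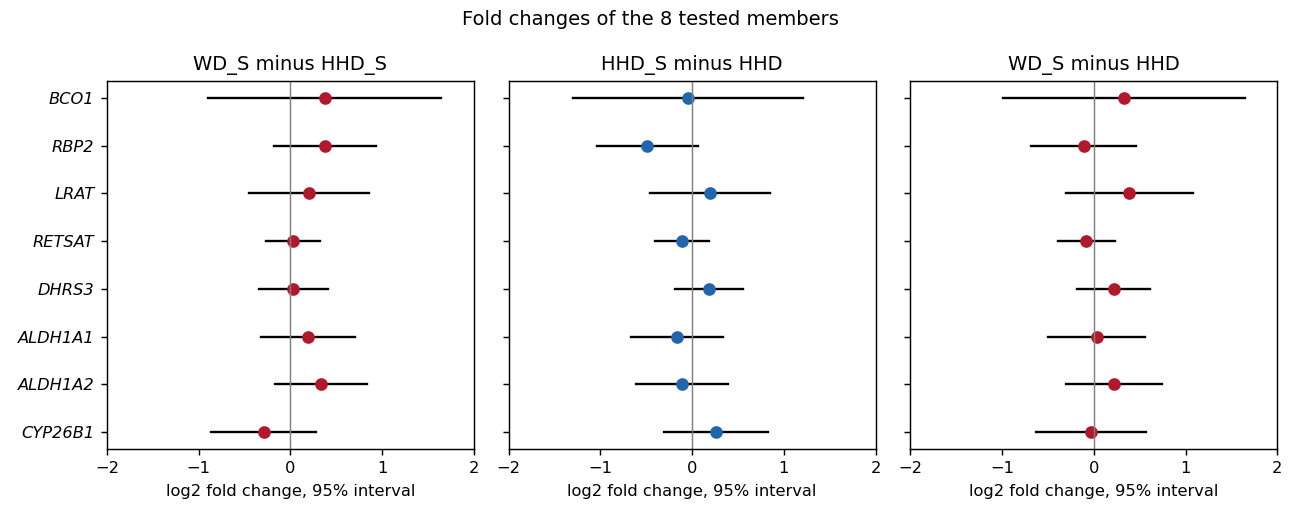
Fitted log2 fold changes (points) with 95% intervals (lines) of the 8 tested genes in each comparison, from the edgeR fit over 22 libraries. Every interval crosses 0, and BCO1 has the widest interval in each panel, from 0.538-fold to 3.12-fold for WD_S over HHD_S.

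Side by side, 7 of the 8 genes had a positive fold change for WD_S over HHD_S, 3 for HHD_S over HHD and 5 for WD_S over HHD, where 47.13%, 52.58% and 48.97% of all genes were positive in those comparisons in the same order. The median over the 8 genes was 0.20, −0.08 and 0.12 on the log2 scale, against −0.01, 0.0088 and −0.0041 over all genes. The comparisons share groups and are not independent of each other. The 95% interval lay within 2-fold in both directions for 7 of the 8 genes for WD_S over HHD_S, all but BCO1, and for 6 in each of the other comparisons. Within library pools, the sign was the same in pool 3 and pool 4 for 8, 5 and 4 of the 8 genes in the 3 comparisons. The share of all genes with the same sign in both pools was not computed. For WD_S over HHD_S the count includes values near 0, such as DHRS3 at 0.0085 in pool 3 and 0.030 in pool 4. Some of the 8 genes also correlated with each other, so their signs are not separate results.

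**Figure D4:**
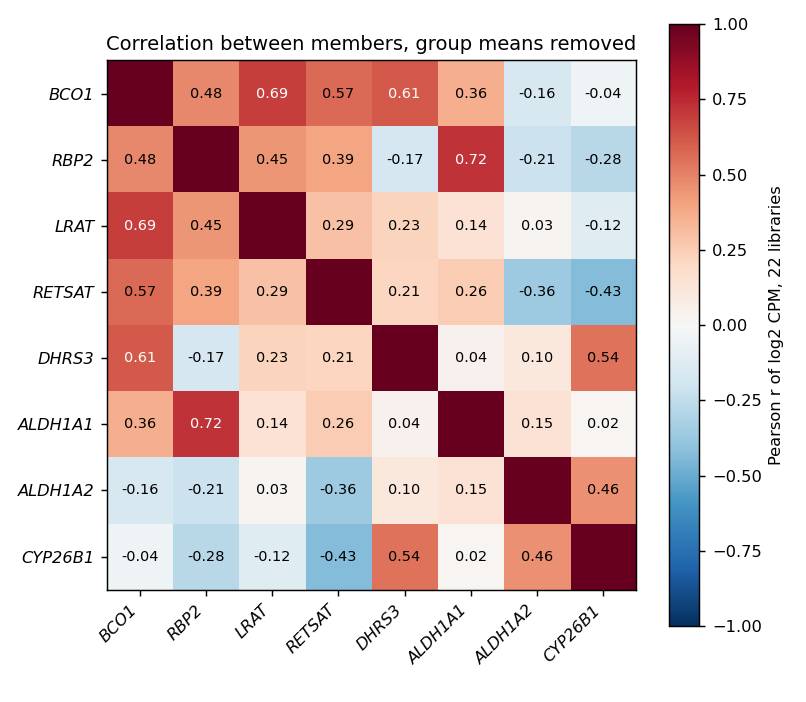
Pearson r between log2 CPM of the 8 tested genes over 22 libraries, with group means removed. The pairs RBP2 with ALDH1A1 (0.72), BCO1 with LRAT (0.69) and BCO1 with DHRS3 (0.61) passed an adjusted p of 0.05 over 28 pairs by r. BCO1 with DHRS3 did not pass by rank, and its r was 0.03 without the late numbered pigs. With adjustment over 13625 genes, 10.8% of all genes passed with BCO1, 11.3% with DHRS3, 1.62% with LRAT, 0.22% with RBP2 and 0.0% with ALDH1A1.

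The rest of the pathway was read from a list of 61 other retinoid and carotenoid genes, of which 55 had rows and 42 were tested. By edgeR, 0 of the 42 passed the adjusted threshold in each comparison of the groups. At an unadjusted p under 0.05, 2 passed for WD_S over HHD_S, 1 for HHD_S over HHD and 4 for WD_S over HHD, where 2.92%, 1.81% and 3.41% of all genes did. The medians of the 42 were 0.0047, −0.04 and −0.0026 on the log2 scale. The values that follow did not pass the adjusted test.

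Among retinol dehydrogenases, RDH5, known for its part in the visual cycle, had a log2 fold change of −0.84 (SE 0.360, edgeR adjusted p = 0.9995) for WD_S over HHD_S, and DHRS4, a peroxisomal retinal reductase, had −0.51 (SE 0.228). The short-chain dehydrogenase DHRS9 had the smallest p in HHD_S over HHD, −0.61 (SE 0.164, edgeR adjusted p = 0.9993), and −0.58 (SE 0.174) for WD_S over HHD. DHRS9 ranged from 1.19 to 1.83 CPM in WD_S, from 1.12 to 2.04 CPM in HHD_S and from 1.83 to 3.15 CPM in HHD. ADH1C, an alcohol dehydrogenase that also oxidizes retinol, had 1.77 (SE 0.855) for HHD_S over HHD. Its highest HHD_S value was 29.0 CPM, in HHD_S 8, against a group median of 1.35 CPM, and HHD had a median of 1.03 CPM. RDH16 had 0.33 (SE 0.179) and RDH11 −0.25 (SE 0.152) in that comparison.

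Of the retinoic acid receptors, RARA had 0.32 (SE 0.155) for WD_S over HHD_S and 0.42 (SE 0.162) for WD_S over HHD, and RARB, itself a target of retinoic acid, had 0.24 (SE 0.216) and 0.12 (SE 0.226). BCO2, the eccentric cleavage enzyme of carotenoids, had 0.05 (SE 0.153) for WD_S over HHD_S and 0.16 (SE 0.151) for HHD_S over HHD, and its medians were 81.6, 80.3 and 68.0 CPM in WD_S, HHD_S and HHD. DGAT1, an alternative retinol acyltransferase, had 0.15 (SE 0.173) and 0.10 (SE 0.170). BCO2 was much steadier between pigs than BCO1, with a within-group SD of 0.31 on the log2 scale. The retinol receptor STRA6, the serum carrier RBP4 and CYP26A1 did not pass the filter, with medians of 0.199, 0.261 and 0.247 CPM, of 0.0571, 0.0717 and 0.0522 CPM, and of 0.283, 0.0961 and 0.189 CPM in WD_S, HHD_S and HHD.

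**Figure D5:**
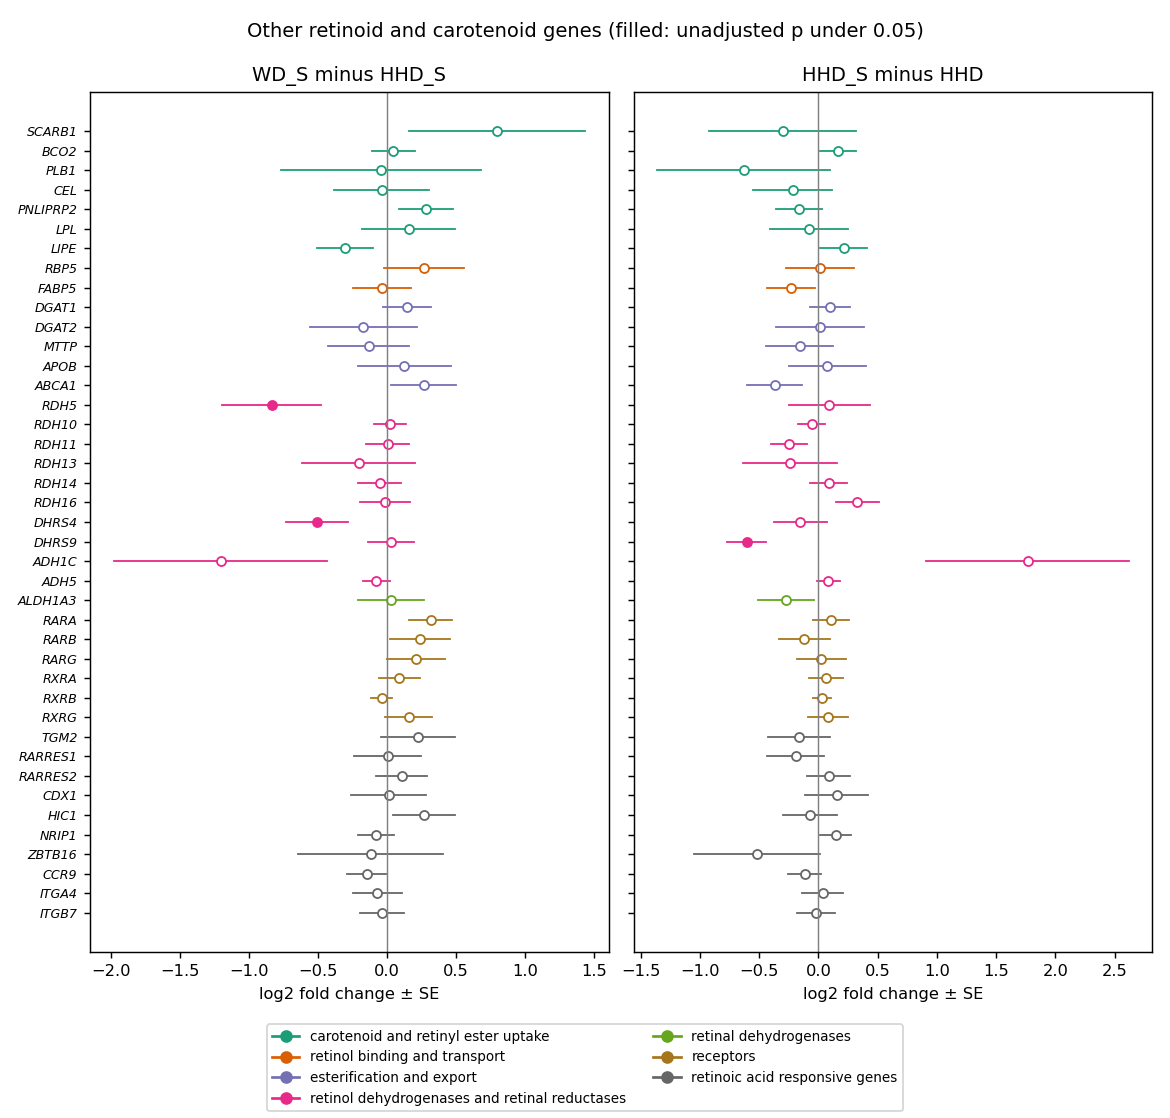
Log2 fold changes with SE of other pathway genes among the 42 tested, coloured by role, for WD_S over HHD_S (left) and HHD_S over HHD (right); filled points have an unadjusted edgeR p under 0.05. Filled are RDH5 and DHRS4 on the left and DHRS9 on the right, and no gene passed the adjusted threshold.

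Correlations of the members with the 42 pathway genes were also run over the 22 libraries, 336 pairs in all. The p of r was adjusted over the 13625 other genes, and that of rho over the 336 pairs; passing refers to r. BCO1 passed with 5 of the 42, where 10.8% of all genes passed, and SCARB1, 1 of the 5, is given above. With the chemerin gene RARRES2, named for its response to retinoids, r was 0.784 and rho 0.726 (permutation p = 2e-05 and 0.00018, adjusted p = 0.00317 and 0.0302), and r was 0.724 without HHD 7 and HHD_S 8. APOB, the structural protein of the chylomicrons that carry retinyl esters, is also 1 of the 12 markers in the enterocyte score. Its correlation with BCO1 is thus not separate from that of the score. With APOB, r was 0.735 and rho 0.726 (permutation p = 0.00016 and 0.00056, adjusted p = 0.00787 and 0.0386), and r was 0.678 without HHD 7 and HHD_S 8. With the acyltransferase gene DGAT2, r was 0.743 and rho 0.624 (permutation p = 0.00196 and 0.00381, adjusted p = 0.0289 and 0.084, not passed by rank), and r was 0.488 without them. With the lymphocyte integrin gene ITGA4, r was −0.586 and rho −0.56 (permutation p = 0.00529 and 0.0123, adjusted p = 0.0495 and 0.15, not passed by rank), and r was −0.291 without the late numbered pigs.

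LRAT passed with 1 of the 42, APOB, also an enterocyte marker, where 1.62% of all genes passed. Its r was 0.754 and its rho 0.605 (permutation p = 0.00022 and 0.00548, adjusted p = 0.0366 and 0.0921, not passed by rank), and r was 0.587 without WD_S 1 and HHD_S 3. RETSAT passed with 9 of the 42, where 17.1% of all genes passed. Its highest r was with DGAT2, 0.743 with a rho of 0.708 (permutation p = 0.00018 and 0.00069, adjusted p = 0.0055 and 0.0386), and r was 0.543 without the late numbered pigs. With the enterocyte marker score, RETSAT had r = 0.709 and rho = 0.747 (permutation p = 0.00056 and 0.00029, adjusted p = 0.0502 and 0.0302 over 104 pairs), which passed by rank alone. With the goblet cell score it had r = 0.674 and rho = 0.659 (permutation p = 0.0012 and 0.00185, adjusted p = 0.0502 and 0.0962), which did not pass. DHRS3 passed with 4 of the 42, where 11.3% of all genes passed. Its highest r was with the receptor gene RXRA, 0.642 with a rho of 0.718 (permutation p = 0.00069 and 0.00031, adjusted p = 0.0171 and 0.0347), and r was 0.333 without the late numbered pigs. Its highest r with a marker score was with smooth muscle, 0.644 with a rho of 0.589 (permutation p = 0.00169 and 0.007, adjusted p = 0.0502 and 0.145 over 104 pairs), which did not pass. RBP2, ALDH1A1, ALDH1A2 and CYP26B1 passed with 0 of the 42. For BCO1, LRAT, RETSAT and DHRS3, the part of the 42 that passed was near the share over all genes. The single genes named are thus no sign of a link particular to this pathway.

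The genes with the most similar pattern were ranked by r over the 22 libraries with group means removed, among 11030 named genes whose mean log2 CPM was 1 or more (11031 for ALDH1A2). They were ORMDL3 (0.909), MARC2 (0.904) and ENPP3 (0.901) for BCO1, and HOMER2 (0.889), GPX4 (0.836) and DHDH (0.827) for RBP2. For LRAT they were DCAF11 (0.893), SLC39A9 (0.83) and NHLRC3 (0.827), for RETSAT DAP (0.939), UBA1 (0.918) and KIAA0319L (0.906), and for DHRS3 TNS3 (0.912), ZNF395 (0.905) and ZNF579 (0.888). For ALDH1A1 they were BLVRA (0.805), SUCLG1 (0.785) and GALM (0.741), for ALDH1A2 FUT8 (0.788), FGF11 (0.762) and ATP5MC2 (0.731), and for CYP26B1 PRKAG3 (0.817), PCMTD2 (0.797) and LSMEM2 (0.795). These are the tops of long rankings and are given as a description.

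The 5 pigs with the highest numbers in their titles (WD_S 7, HHD_S 7, HHD_S 8, HHD 6 and HHD 7) were set against the other 17 in a comparison added after the data were seen; the labels do not say that these numbers mark a batch. Of the 5 lowest BCO1 libraries, 4 were late numbered. BCO1 was 7.56, 25.9, 36.7, 72.6 and 298.9 CPM in the late numbered pigs, against 26.9 to 313.8 CPM with a median of 181.2 CPM in the earlier numbered pigs. The late numbered pig HHD 6 was thus near the top of the whole range while the other 4 were among the 5 lowest libraries. With group and pool in the fit, the log2 difference of late over earlier pigs was −1.23 (SE 0.642, edgeR adjusted p = 0.266) for BCO1 and −0.38 (SE 0.167, adjusted p = 0.176) for DHRS3. With each library left out in turn, BCO1 ran from −0.89 (without HHD_S 8, adjusted p = 0.511) to −2.66 (without HHD 6, adjusted p = 0.00228), and DHRS3 from −0.27 (without HHD_S 7, adjusted p = 0.390) to −0.68 (without HHD 6, adjusted p = 0.00357). HHD 6 is the one late numbered pig with high values of both genes, so the values without it are given as a description only. None of the 8 genes was called with all libraries, where 5.59% of all genes (762) were, a count that was 191 without HHD 7 and 2039 without HHD 6.

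Of the 42 pathway genes, 4 were called lower in the late numbered pigs by edgeR. They were the pancreatic lipase related gene PNLIPRP2 (−0.62, SE 0.155, adjusted p = 0.0231), the retinal dehydrogenase gene ALDH1A3 (−0.72, SE 0.190, adjusted p = 0.0298), RARA (−0.47, SE 0.125, adjusted p = 0.0302) and the intestinal transcription factor gene CDX1 (−0.83, SE 0.228, adjusted p = 0.0356). Markers of other cells moved with the same split. All 6 smooth muscle markers were called lower, at a median of −0.99 on the log2 scale, with summed levels of 224.0 to 677.1 CPM in late and 346.6 to 1163 CPM in earlier numbered pigs. Of 9 fibroblast markers, 7 were called lower, at a median of −0.79, with sums of 644.5 to 1747 CPM in late and 944.1 to 3049 CPM in earlier numbered pigs. Of 12 enterocyte markers 0 were called, at a median of −0.14, with sums of 36250 to 73610 CPM in late and 25850 to 85620 CPM in earlier numbered pigs. In the other marker lists, 1 of 5 cell division markers (CDK1) and 1 of 7 T and NK cell markers (GZMB) were called higher. Of 11 macrophage and dendritic markers, 1 (CD163) was called higher and 1 (ITGAX) lower, at a median of −0.008. No marker was called in the goblet, enteroendocrine, endothelial, crypt and stem, or B and plasma cell lists. The same held for the lists of gut regions, pancreas and liver. All 6 goblet and all 8 enteroendocrine markers had negative values, at medians of −0.50 and −0.31. Of 6 endothelial markers 4 were negative and 2 positive, at a median of −0.45. Of all genes, 5.59% were called in this comparison. The part of these markers in the values of BCO1 and DHRS3 was not tested.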

How the data were processed

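Jejunal mucosa RNA of 22 pigs was sequenced. TruSeq version 2 libraries of RNA with an RQI over 8 were read as single 150-base reads and mapped in a CLC workbench to Sus scrofa 11.1, per the labels' protocols; the sources used here do not name its version or settings. The deposited values are unique exon read counts per gene, per the file headers. Genes with near-identical copies lose reads in such counts.

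The counts were tested with edgeR 4.0.16 (R 4.3.3) by a quasi-likelihood fit with robust estimation over 3 groups, with library pool (3 or 4, read from deposited names) as an additive term. The filter was filterByExpr with a minimum count of 10, scaling was TMM (factors 0.89 to 1.12), which left 18 residual degrees of freedom, with 25.9% as the biological coefficient of variation. Benjamini-Hochberg adjustment ran over 13626 genes, with a threshold of 0.05. Correlations used log2 CPM (prior count 2) with group means removed and 100000 two-sided permutations within groups. Pigs were separate animals, so p-values measure the spread between pigs. Sex was not a term in the main fit. An alternative fit used the mean level of 2 Y-linked genes as a covariate. All library pairs differed by more than sampling noise (smallest reduced chi-square 25.2 over 231 pairs).

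Members and lists were chosen with earlier results of these data known. Named pathway genes were BCO2, SCARB1, STRA6, RBP4, RARB, CYP26A1 and DGAT1, and the 4 smallest p per comparison, with 1 gene of the list not reported here; for each member the 3 genes most alike were named. The late numbered comparison and the correlations with pathway genes and marker scores were added after the data were seen. Symbols came from the deposited tables for 17332 genes and from a table of gene names for 1073 more; 5953 had none. Coordinates are RefSeq gene spans on Sscrofa11.1, given for 8 members. Alternatives were run with DESeq2 1.42.0, limma 3.58.1 and other filters, scalings and library sets.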

Additional observations from a re-analysis of the deposited data

Results flagged for a closer look

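Of 27 sets of values tested by Dixon's Q (9 genes in 3 groups), 1 held a library that stood apart from the others of its group. It was CRABP2 in HHD_S, where HHD_S 8 had 0.140 CPM while the other 7 libraries lay between 0 and 0.0485 CPM. That value is 3 reads, against 0 or 1 read in each of the other HHD_S libraries.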

How the results depend on the processing

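No paired analysis was possible because each library came from a separate pig and the replicate numbers only name the libraries. Of 864 alternative fold changes of the 8 genes in the 3 comparisons of the groups, 813 kept their sign, 51 had the other sign and 0 passed the threshold; the smallest adjusted p was 0.566. The cause of each change was not tested.

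The number of genes called for WD_S over HHD_S, 0 in the main analysis, was 2 without the pool term, 4 with DESeq2, 1 with limma, 2 without the late numbered pigs, 1 with a Y-linked covariate, 1 with an enterocyte score covariate, 2 with a term for late numbered pigs, and 0 to 2 with each library left out. For HHD_S over HHD it was 1 with DESeq2. For WD_S over HHD, 1 in the main analysis, it was 0 in either pool alone and with total counts scaling, 2 with DESeq2 or a late term, and 0 to 1 with each library left out. For any difference among the groups, also 1, it was 0 in those 3 settings, 3 with DESeq2, 2 with a late term and 0 to 1 with each library left out. The late comparison called 762 genes, and 191 (without HHD 7) to 2039 (without HHD 6) with a library left out; it was 229 without WD_S 7, 332 without HHD_S 7 and 1315 without HHD_S 4. BCO1 and DHRS3 passed there only without HHD 6.

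Signs that changed, as log2 fold changes, were as follows. For WD_S over HHD_S, LRAT was −0.022 with limma; RETSAT was −0.0015 with total counts, −0.011 with limma, −0.040 with the enterocyte covariate and −0.0018 with the late term; DHRS3 was −0.018 without the late numbered pigs and −0.0068 with the late term. For HHD_S over HHD, BCO1 was 0.010 in pool 3, 0.39 with limma and 0.29 without the late numbered pigs. ALDH1A1 was 0.085 in pool 3, and ALDH1A2 was 0.29 in pool 4 and 0.013 with limma. For WD_S over HHD, BCO1 was −0.060 with the enterocyte covariate, RBP2 0.34 and RETSAT 0.0079 in pool 3. ALDH1A1 was −0.22 in pool 4, −0.095 without the late numbered pigs, −0.0092 with the enterocyte covariate and −0.017 with only the compared groups in the fit. CYP26B1 was 0.19 in pool 4, 0.059 with limma, 0.043 without the late numbered pigs and 0.14 with the enterocyte covariate.

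With each library left out, values spanned 0 for LRAT (−0.067 to 0.38), RETSAT (−0.042 to 0.081) and DHRS3 (−0.044 to 0.10) in WD_S over HHD_S. They did so for BCO1 (−0.25 to 0.20) and ALDH1A1 (−0.35 to 0.086) in HHD_S over HHD. In WD_S over HHD they did for RBP2 (−0.32 to 0.15), RETSAT (−0.15 to 0.033), ALDH1A1 (−0.074 to 0.34) and CYP26B1 (−0.20 to 0.13), and in the late comparison for ALDH1A1 (−0.14 to 0.16). Depth limits CRABP2 and, at 10 to 45 reads, ALDH1A2.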
